A study of Mus musculus with 63 samples.

Results

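The collagen and laminin genes are the rows of the deposited gene table whose symbol is Col, a number, a and a number, or Lam, a letter a, b or c and a number, chosen by a measured value above 0 in at least 3 libraries, whatever their group. The rule kept 55 of 23078 genes, 44 collagen chains and 11 laminin chains, and its threshold removed none of the 55 symbol matches: the member seen in the fewest libraries, Col10a1, was above 0 in 32 of 63. The libraries came from sorted cells of the dorsal cerebral cortex of C57Bl/6 mouse embryos that all carried a Ski knock-out, so every comparison is between cell types or days within the knock-out and none is with wild type. Neural stem cells (NSC) were GFP-positive cells of Hes5::GFP; Ski KO embryos, taken daily from E11.5 to E18.5 (26 libraries, 8 groups). Basal progenitors (BP) came from Tbr2::GFP; Ski KO embryos from E12.5 to E18.5 (24 libraries, 7 groups) and newborn neurons (NBN) from the same reporter line from E15.5 to E18.5 (13 libraries, 4 groups). Groups held 2 to 6 libraries, all labelled female. The labels do not say whether libraries of a group came from separate embryos, so p-values measure the spread between these libraries, which may be technical. How BP and NBN were told apart in the sort, which part of Ski was deleted and which promoter or Cre line made the deletion are not given in the sources used here.

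Collagens are triple helices of 3 chains. The fibrillar types make tensile fibres, type IV collagen makes the sheet of basement membranes, and fibril-associated and multiplexin types decorate one or the other. Laminins are trimers of an alpha, a beta and a gamma chain that seed basement membranes and are bound by integrins and dystroglycan on the cell. In the embryonic cortex the end feet of radial glia rest on a pial basement membrane, to which meningeal fibroblasts contribute, and vessels that grow into the wall carry basement membranes of their own.

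Values are TPM, a transcript's share of all transcripts of its library after division by its length, so levels of different genes can be set side by side. Of the 55 members, 38 reached 1 TPM in at least 3 libraries and were tested. The highest group mean was at least 10 TPM in 19 members, between 1 and 10 TPM in 19 and under 1 TPM in 17. The members nearest to the 10 TPM line were Lama5 above it (10.1 TPM) and Col16a1 under it (9.70 TPM). No library was a copy of another, and the correlation of log2(TPM + 1) between libraries of a group lay between 0.972 and 0.998. The table holds no read counts, so the depth of each library is unknown and no counting interval is given.

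The sort was checked on defining genes. Hes5, the Notch target that drives the stem cell reporter, had a median of 113 TPM in NSC, 3.40 TPM in BP and 4.09 TPM in NBN. Eomes, which encodes Tbr2, had a median of 453 TPM in BP and 19.5 TPM in NBN, but also 262 TPM in NSC. Ski itself was read at 17.2 to 53.1 TPM in every library, and without wild type libraries or the deleted part this level does not check the genotype. Y-linked genes summed to at least 10 TPM in 39 of 63 libraries, although all are labelled female. Interneuron genes were present in the NSC libraries: Dlx2 ran from 16.2 to 240.5 TPM there.

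A few libraries stood apart in genes of other cell types. From the lists of endothelium, pericyte, meninges and fibroblast markers, Crabp2, Mfsd2a, Egfl7 and Acta2 were left out after the values were seen. In some groups these genes made up most of the summed TPM of their lists. Over the remaining 38 marker genes, 5 libraries summed to over 80 TPM: NSC E16.5 replicate 3 (96.6 TPM), NSC E17.5 replicate 1 (231 TPM), BP E16.5 replicate 2 (220.4 TPM), BP E17.5 replicate 3 (232 TPM) and NBN E16.5 replicate 3 (82.5 TPM). The leading genes differed between them. Cdh5, the cadherin of endothelial junctions, was at 29.7 TPM in BP E16.5 replicate 2 and 33.5 TPM in BP E17.5 replicate 3, whereas NSC E17.5 replicate 1 had 6.44 TPM of Cdh5 with 42.0 TPM of the pericyte gene Vtn, 30.2 TPM of the fibroblast gene Dcn and 60.2 TPM of the microglial gene C1qa. Foxc1, a defining factor of the meninges, was under 2 TPM in every library. It read 1.76 TPM in NSC E17.5 replicate 1 and 1.23 TPM in NSC E16.5 replicate 3, against an NSC median of 0.103 TPM. The meninges and fibroblast list without Crabp2 (15 genes) summed to 122.5 and 53.9 TPM in those libraries, and to 3.23 to 3.89 TPM in NSC at E15.5. The sum of 8 erythroid markers was highest in NSC E17.5 replicate 1 (9493 TPM) and NSC E12.5 replicate 4 (4505 TPM). In bulk RNA, fewer cells of a type and less RNA per cell cannot be told apart.

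**Figure D1:**
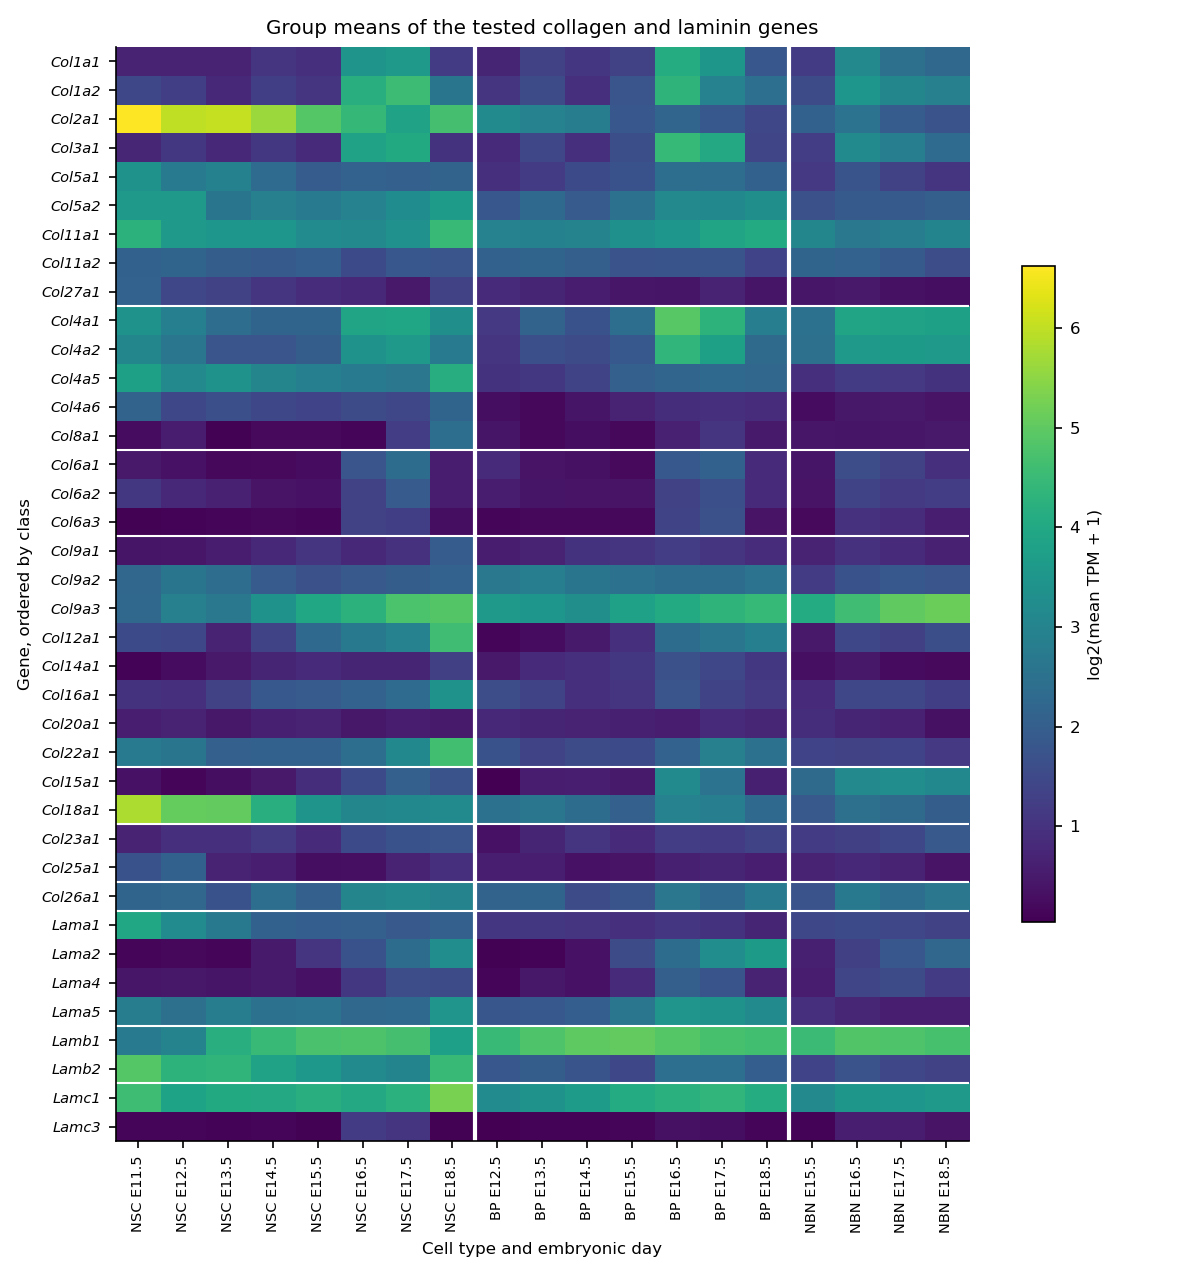
Group means of the 38 tested collagen and laminin genes, as log2(mean TPM + 1), with genes in rows by class (white lines) and the 19 groups in columns (thick white lines part NSC, BP and NBN). Col2a1 and Col18a1 are brightest in NSC at E11.5, and Col1a1, Col1a2, Col3a1, Col4a1 and Col4a2 brighten at E16.5 and E17.5.

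Summed over the 44 collagens, NSC went from 262 ± 47.0 TPM (SD, n = 3) at E11.5 to 112 ± 21.6 TPM (SD, n = 3) at E15.5 and 232 ± 15.8 TPM (SD, n = 3) at E18.5. The collagens behind these similar end points were not the same: the fibrillar class made up 147 ± 30.0 TPM at E11.5 and 73.2 ± 1.78 TPM at E18.5, and the fibril-associated class 16.9 ± 2.73 TPM and 93.8 ± 14.3 TPM. The 11 laminins summed to 79.5 ± 6.08 TPM in NSC at E11.5, to 64.2 ± 6.41 TPM at E17.5 and to 97.6 ± 10.6 TPM at E18.5. In BP the laminin sum was 36.6 ± 2.70 TPM at E12.5 (n = 2) and 64.5 ± 2.53 TPM at E18.5 (n = 3). NBN held 35.7 ± 8.498 TPM at E15.5 and 45.5 ± 2.42 TPM at E18.5.

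Among the 11 fibrillar collagens, Col2a1 (chr15:97975602-98004695, minus strand; positions are of the whole gene in GENCODE vM21, build GRCm38) was the most abundant collagen of NSC at E11.5. It encodes the main fibril chain of cartilage and is also known from the embryonic neuroepithelium. The NSC libraries read 104, 118 and 71.5 TPM at E11.5, 60.8, 39.9, 38.2 and 56.3 TPM at E14.5, 8.88, 20.5 and 10.3 TPM at E17.5 and 23.6, 27.4 and 23.4 TPM at E18.5. BP libraries read 7.12 and 8.94 TPM at E12.5 and 1.61, 2.26 and 1.32 TPM at E18.5, and the 13 NBN libraries 1.04 to 5.46 TPM. On each of the 7 days shared by NSC and BP the lowest NSC library was above the highest BP library, and the NSC libraries of E11.5 did not overlap those of E17.5. The low NSC library at E16.5, replicate 1 at 8.32 TPM against 29.3 and 23.9 TPM in the others, was also the lowest of its group in Hes5, at 15.51 TPM against 114 and 96.8 TPM.

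Col5a2, Col5a1 and Col11a1 encode minor fibril chains that set fibril width. Col5a1 had 9.48 ± 0.838 TPM (SD, n = 3) in NSC at E11.5 and 3.41 ± 0.260 TPM (SD, n = 3) at E18.5, while BP had 0.950 ± 0.181 TPM (SD, n = 2) at E12.5 and 3.22 ± 0.255 TPM (SD, n = 3) at E18.5. At E15.5 NSC had 2.85 ± 1.295 TPM and BP 2.27 ± 1.101 TPM, so the levels had already come close, from opposite sides. The BP mean was above that of NSC at E16.5 (4.34 against 3.34 TPM) and E17.5 (4.27 against 3.19 TPM). Col5a2 read 7.76, 14.46 and 11.2 TPM in NSC at E11.5, 7.78, 4.32 and 5.23 TPM at E15.5 and 10.5, 12.6 and 11.7 TPM at E18.5, against 8.73, 10.1 and 7.99 TPM in BP and 3.13, 3.65 and 2.46 TPM in NBN at E18.5. Col11a1 was at 20.8, 18.8 and 14.9 TPM in NSC at E11.5, 7.64, 11.4 and 9.06 TPM at E17.5 and 21.5, 21.0 and 21.3 TPM at E18.5. Its first and last NSC groups stood above every group between them in their means. Col11a2 stayed between 1.59 and 3.496 TPM in all group means and passed no test in any comparison. Col27a1 was at 3.32 ± 0.985 TPM in NSC at E11.5 and under 2 TPM in every other group mean.

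Col1a1, Col1a2 and Col3a1 are the fibrillar chains of connective tissue. Through E15.5 no group mean of any of them exceeded 2.41 TPM. At E16.5 the NSC libraries read 0.756, 13.3 and 25.4 TPM of Col3a1 and at E17.5 42.2, 2.61 and 1.78 TPM. The BP libraries read 1.08, 43.3 and 17.8 TPM at E16.5 and 4.06, 1.92, 53.4 and 1.41 TPM at E17.5, and NBN 2.18, 6.65 and 15.2 TPM at E16.5. High and low libraries thus stood side by side within a group, and at E18.5 the NSC libraries were back at 1.54, 0.596 and 0.837 TPM. The 4 libraries with the highest Col3a1 (25.4 to 53.4 TPM) were 4 of the 5 whose vessel and meninges markers summed to over 80 TPM. Those 4 were also the highest in Col1a1, led by BP E17.5 replicate 3 at 34.7 TPM. Col1a2 was highest in NSC E17.5 replicate 1, at 60.1 TPM, and read 5.28, 3.06, 17.3 and 1.42 TPM in BP at E17.5. The part of vessel and meninges cells in these values was not tested.

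The promoters of Col1a2 and Col3a1 are shown because the genes moved together over the 63 libraries after group means were removed (r 0.95, rho 0.92, and r 0.96 without the 2 libraries farthest from the median of the first gene). They are the RefSeq windows of build GRCm38.p6, 250 bases before to 50 after the start, at chr6:4505368-4505667 on the plus strand and chr1:45311288-45311587 on the plus strand, written 5′ to 3′ along the gene. Capitals mark every match, on either strand, of TATAAA (the TATA box), CCAAT (the core bound by NF-Y), GGGCGG (the core bound by Sp1) and CAGACA (a core bound by SMAD proteins, with which Ski associates), and none of the marked matches overlapped one of another motif.
Col1a2: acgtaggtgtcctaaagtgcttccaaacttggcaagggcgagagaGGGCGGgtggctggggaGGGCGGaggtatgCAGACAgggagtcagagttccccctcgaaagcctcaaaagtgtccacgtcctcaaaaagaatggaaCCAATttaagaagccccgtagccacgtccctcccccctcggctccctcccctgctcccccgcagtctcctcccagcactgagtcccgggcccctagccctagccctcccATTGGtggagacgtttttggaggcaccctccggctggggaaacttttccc
Col3a1: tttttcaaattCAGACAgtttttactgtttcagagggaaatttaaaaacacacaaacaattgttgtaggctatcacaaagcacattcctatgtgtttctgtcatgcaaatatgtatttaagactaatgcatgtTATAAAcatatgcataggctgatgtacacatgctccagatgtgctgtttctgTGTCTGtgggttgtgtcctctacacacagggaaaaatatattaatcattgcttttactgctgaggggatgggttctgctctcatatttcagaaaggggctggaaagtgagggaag
The Col1a2 window held 2 CCAAT, 2 GGGCGG and 1 CAGACA match at a G and C content of 61%, and the Col3a1 window 1 TATAAA and 2 CAGACA matches at 37.7%. The pair therefore shared only CAGACA among the 4 motifs searched. A match is a description of letters and not a binding site.

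Of the 9 network collagens, the 6 type IV chains sit in 3 head-to-head gene pairs, and both pairs high enough to test ran together. Col4a1 (chr8:11198423-11312826, minus strand) and Col4a2 (chr8:11312805-11449287, plus strand) encode the chains of every basement membrane, and their starts lie 21 bases apart. Col4a1 read 10.8, 11.1 and 6.78 TPM in NSC at E11.5, 3.85, 3.24 and 3.28 TPM at E15.5, 28.0, 8.88 and 5.29 TPM at E17.5 and 9.90, 9.16 and 8.12 TPM at E18.5. In BP it read 1.09 and 1.29 TPM at E12.5, 6.85, 70.1 and 11.02 TPM at E16.5, 8.43, 6.22, 54.0 and 5.82 TPM at E17.5 and 7.77, 6.19 and 4.71 TPM at E18.5. The BP libraries at 70.1 and 54.0 TPM were those with the highest Cdh5. NBN libraries were tighter, at 6.66, 3.49 and 3.79 TPM at E15.5 and 13.2, 12.7 and 12.8 TPM at E18.5, and these days did not overlap. The summed endothelium markers (14 genes) of NBN were at 4.61 to 12.7 TPM and 17.2 to 28.9 TPM on these days and the pericyte markers (9 genes) at 3.98 to 8.02 TPM and 16.6 to 22.8 TPM, and their part was not tested. The Col4a1 to Col4a2 ratio had a median of 1.32 (range 0.999 to 2.16) in NSC, 1.49 (range 1.00 to 1.88) in the 23 BP libraries with at least 1 TPM of both and 1.16 (range 0.815 to 1.38) in NBN. Over the 63 libraries, group means removed, the pair gave r 0.98, rho 0.92, and r 0.96 without the 2 libraries farthest from the median of the first gene. Reads from the bases the genes share at their starts cannot be assigned by position alone.

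The promoter windows of this pair are shown because they overlap. RefSeq places the windows at chr8:11312777-11313076 on the minus strand and chr8:11312555-11312854 on the plus strand, and 78 bases are common to both, read from opposite strands. Capitals mark the same 4 motifs as above.
Col4a1: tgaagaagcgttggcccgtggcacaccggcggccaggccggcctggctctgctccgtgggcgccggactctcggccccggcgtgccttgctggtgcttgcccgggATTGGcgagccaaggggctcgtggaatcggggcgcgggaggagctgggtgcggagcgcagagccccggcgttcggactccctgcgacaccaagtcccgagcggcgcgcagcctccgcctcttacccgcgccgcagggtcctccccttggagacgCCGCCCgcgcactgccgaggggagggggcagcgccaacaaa
Col4a2: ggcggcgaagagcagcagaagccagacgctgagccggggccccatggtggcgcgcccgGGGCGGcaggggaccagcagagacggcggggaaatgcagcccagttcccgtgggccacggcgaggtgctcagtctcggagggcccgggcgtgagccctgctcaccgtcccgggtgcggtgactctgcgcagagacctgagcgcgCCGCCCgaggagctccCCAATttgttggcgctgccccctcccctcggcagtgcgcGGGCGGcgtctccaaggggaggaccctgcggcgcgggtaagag
The Col4a1 window held 1 CCAAT and 1 GGGCGG match and the Col4a2 window 1 CCAAT and 3 GGGCGG matches, at G and C contents of 74% and 73.7%. Neither held TATAAA or CAGACA. Promoter windows were found for 40 of the 55 members (44 windows). GGGCGG was in 59.1% of these and in 35.7% of the 32851 windows of all genes, CCAAT in 31.8% and 37.4%, TATAAA in 11.4% and 13.6%, and CAGACA in 25% and 21%. The median G and C content was 59.5% in the members' windows and 52.7% in all.

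Col4a5 and Col4a6, on the X chromosome with starts 1309 bases apart, encode chains of specialised basement membranes. Col4a5 read 14.8, 13.6 and 10.1 TPM in NSC at E11.5, 5.63, 5.63 and 4.52 TPM at E17.5 and 11.1, 18.2 and 20.6 TPM at E18.5. BP had 1.10 and 0.922 TPM at E12.5 and 3.56, 4.82 and 2.60 TPM at E18.5, and NBN never exceeded 1.79 TPM. The stem cells were therefore highest at both ends of the course and the neurons lowest throughout. In the 23 NSC libraries with at least 1 TPM of both, Col4a5 exceeded Col4a6 by a median factor of 4.11 (range 2.23 to 5.12), and the pair gave r 0.76, rho 0.74, and r 0.75 without the 2 libraries farthest from the median of the first gene. Col4a3 and Col4a4, whose starts are 72 bases apart, were not tested, although Col4a4 read 0.983, 2.23 and 2.85 TPM in NSC at E18.5. Col8a1, a short-chain collagen of vessel walls and the eye, read 0.480, 0.204 and 3.39 TPM in NSC at E17.5 and 5.64, 6.88 and 0.380 TPM at E18.5, so the days overlapped, and every other group mean was under 2 TPM. The remaining network chains, Col8a2 and Col10a1, were not tested.

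The beaded filament and anchoring class has 8 members, of which only the type VI chains Col6a1, Col6a2 and Col6a3 were tested. Col6a1 was at 11.6, 0.581 and 0.324 TPM in NSC at E17.5 and 2.14, 0.659, 9.59 and 0.531 TPM in BP at E17.5, so 1 library of each group carried most of it. Those were again the marker-rich libraries. No type VI chain passed the test in any of the 8 comparisons.

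Among the 9 fibril-associated collagens, 1 passed the test for a rise over the days in all 3 cell types in the main fit. In BP and NBN some of the alternative fits given below ended its call. Col9a3 (chr2:180597790-180622189, plus strand), a chain of type IX collagen, read 1.60, 4.12 and 5.67 TPM in NSC at E11.5, 11.4, 14.8 and 18.1 TPM at E15.5 and 36.0, 24.4 and 24.2 TPM at E18.5. In BP it went from 9.04 and 13.1 TPM at E12.5 to 20.4, 19.2 and 22.5 TPM at E18.5, and in NBN from 19.4, 12.04 and 16.3 TPM at E15.5 to 37.6, 28.9 and 37.5 TPM at E18.5. In each cell type the first and last day did not overlap, and it was the most abundant collagen of the neurons. Of its partner chains, Col9a2 stayed between 1.28 and 6.27 TPM in all group means, and Col9a1 reached 2.88 TPM in NSC at E18.5. The Col9a3 to Col9a2 ratio was 0.977 in NSC at E11.5, 7.70 in NSC at E18.5 and 12.8 in NBN at E18.5 (medians). Tcfl5 overlaps Col9a3 on the opposite strand, and the sources used here do not say whether counting used strand, so reads from the overlap cannot be told apart.

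Col12a1 and Col22a1, fibril-associated chains found at tissue junctions, were highest in NSC on the last day. Col12a1 read 1.77, 2.63 and 1.24 TPM in NSC at E11.5, 5.16, 9.10 and 5.99 TPM at E17.5 and 14.7, 26.0 and 29.5 TPM at E18.5. In BP it went from 0.0665 and 0.134 TPM at E12.5 to 5.84, 5.93 and 7.47 TPM at E18.5. In NBN it had 0.406 ± 0.205 TPM at E15.5 and 2.05 ± 0.233 TPM (SD, n = 3) at E18.5, a rise that did not pass the test. Col22a1 read 2.96, 3.80 and 2.90 TPM in NSC at E15.5, 4.95, 11.7 and 6.24 TPM at E17.5 and 11.3, 29.6 and 30.5 TPM at E18.5. Replicate 1 was the low library of E18.5 for both genes. Col16a1, which also associates with fibrils, had 1.01 ± 0.356 TPM in NSC at E11.5 and 9.70 ± 1.71 TPM (SD, n = 3) at E18.5, and reached 2.40 TPM at most in the BP group means. Col14a1 was at most 3.36 TPM in any library. Col20a1 was tested and passed in no comparison. Col19a1 was too low to test.

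The 2 multiplexin collagens, proteoglycan chains of basement membranes whose ends release anti-angiogenic fragments such as endostatin from Col18a1, took opposite courses in NSC. Col18a1 (chr10:77052178-77166548, minus strand) read 54.8, 63.3 and 47.7 TPM in NSC at E11.5, 20.6, 17.54, 12.3 and 19.2 TPM at E14.5 and 5.66, 9.42 and 9.14 TPM at E18.5. BP libraries ran from 2.68 to 9.89 TPM and NBN libraries from 2.15 to 5.95 TPM. Slc19a1 overlaps Col18a1 on the opposite strand. Col15a1 was high in the neurons: NBN libraries read 4.63, 2.27 and 4.99 TPM at E15.5 and 9.13, 8.14 and 5.47 TPM at E18.5. In BP it was under 1 TPM in every library but 2, which read 23.0 TPM (E16.5 replicate 2) and 17.52 TPM (E17.5 replicate 3), the libraries with the highest Cdh5. Every NBN library was above every NSC library of its day, and NSC did not exceed 4.59 TPM. Of the transmembrane collagens, Col23a1 had 0.594 ± 0.0802 TPM in NSC at E11.5 and 2.43 ± 1.01 TPM at E18.5, and Col25a1 2.26 ± 0.587 TPM and 0.904 ± 0.370 TPM. Col13a1 and Col17a1 of that class were not tested. Col26a1 was between 1.97 and 7.88 TPM in all group means.

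**Figure D2:**
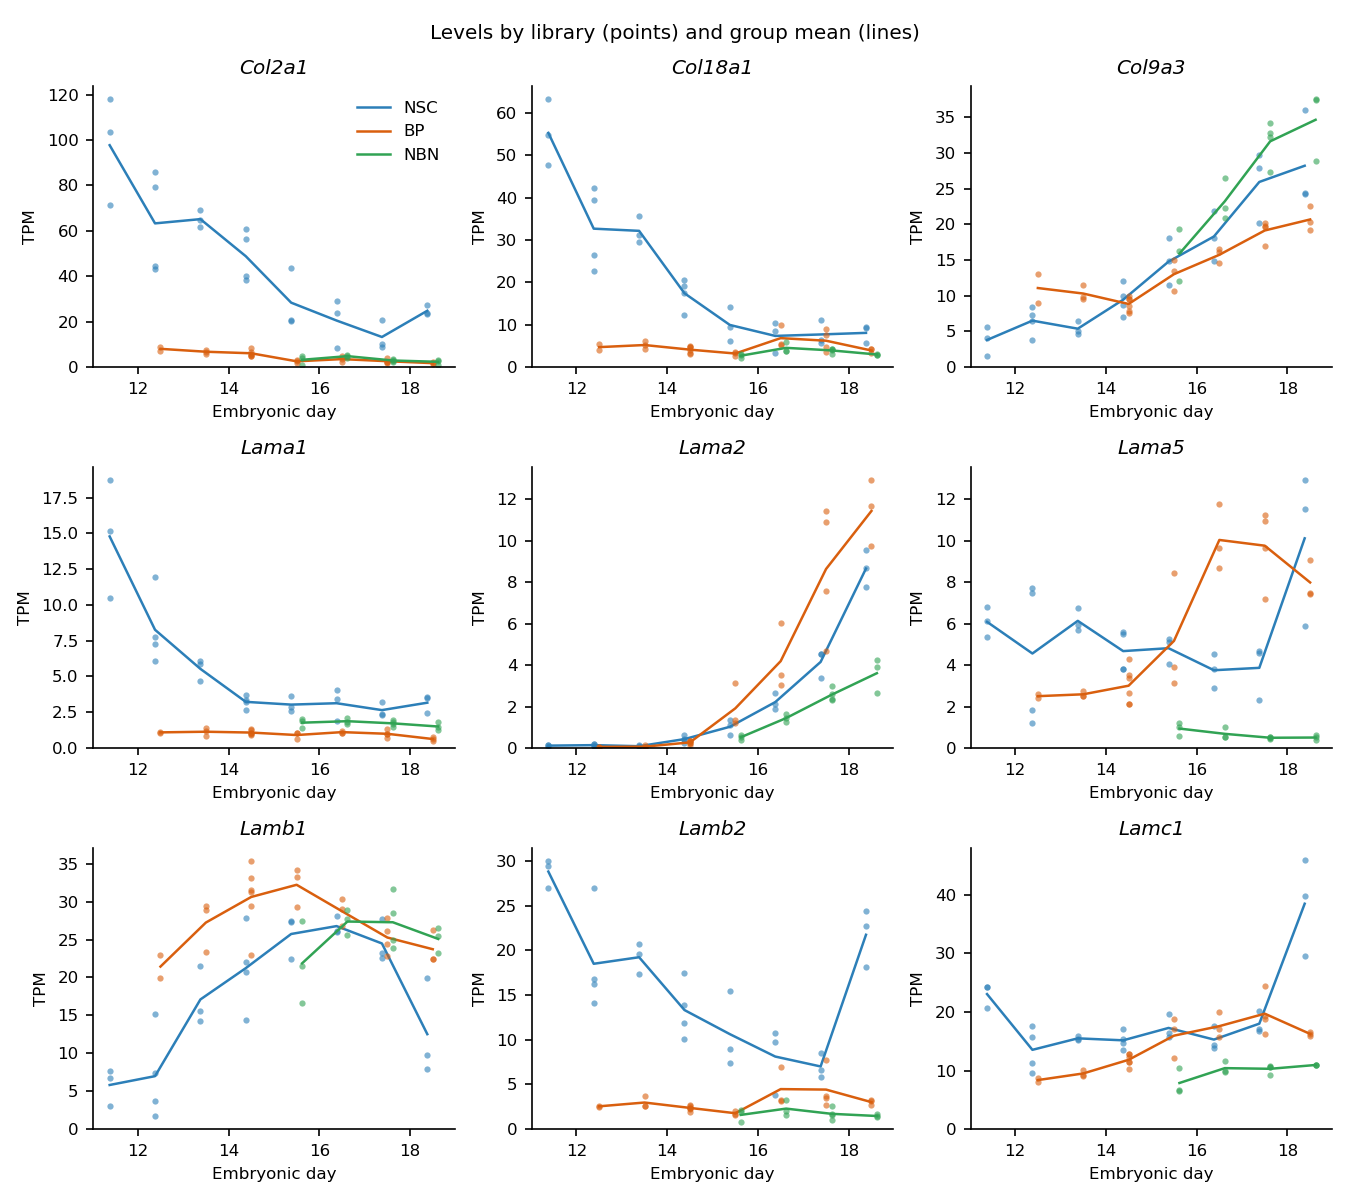
Level in TPM (vertical axis) against embryonic day (horizontal axis) of 9 members, with 1 point for each library and lines through the group means of NSC (blue), BP (orange) and NBN (green), which are offset sideways. Col2a1, Col18a1 and Lama1 fall in NSC from E11.5, Lama2 and Col9a3 climb, and Lamb2 and Lamc1 step up in NSC at E18.5 while Lamb1 steps down.

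The laminin alpha chains, which carry the cell-binding domains, changed places. Lama1 (chr17:67697259-67822647, plus strand), the alpha chain of early embryonic basement membranes, read 18.7, 15.2 and 10.5 TPM in NSC at E11.5, 3.71, 2.68, 3.18 and 3.34 TPM at E14.5 and 2.47, 3.56 and 3.49 TPM at E18.5. BP libraries stayed within 0.469 to 1.42 TPM and NBN libraries within 1.25 to 2.13 TPM. On every shared day NSC did not overlap BP, and on every one of the 4 days shared by NBN and BP the neurons lay above the progenitors. Lama2 (chr10:26980036-27619758, minus strand), the chain whose loss causes merosin-deficient muscular dystrophy with white matter changes, took the other course. It was under 1 TPM in every library before E15.5 and read 7.75, 8.69 and 9.54 TPM in NSC, 11.7, 9.72 and 12.9 TPM in BP and 3.90, 2.68 and 4.25 TPM in NBN at E18.5. At E18.5 the 3 cell types did not overlap, with BP highest and NBN lowest.

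Lama5 (chr2:180176373-180225859, minus strand), a broadly used chain of epithelial and vessel basement membranes, parted progenitors from neurons. It read 2.60 and 2.40 TPM in BP at E12.5, 9.65, 11.8 and 8.67 TPM at E16.5 and 7.43, 9.05 and 7.48 TPM at E18.5. NBN libraries were within 0.382 to 1.22 TPM and lay under every BP and NSC library of their day. In NSC it was at 1.23, 1.82, 7.49 and 7.71 TPM at E12.5, where replicates 1 and 2 stood apart from 3 and 4, and at 5.91, 11.51 and 12.9 TPM at E18.5. Lama4, a chain of vessel basement membranes, had its highest group mean in BP at E16.5 (3.06 TPM), from libraries at 1.10, 6.20 and 1.88 TPM. As a share of the summed alpha TPM of a library, Lama1 was 68.2% ± 6.92 (SD, n = 3) in NSC at E11.5 and 13.3% ± 0.889 at E18.5. Lama2 was 0.538% ± 0.103 and 37% ± 5.89 on those days, and 55.1% ± 6.33 in BP and 50.2% ± 7.64 in NBN at E18.5. In NSC, Lama5 was 29.3% ± 7.43 at E11.5, 52.2% ± 1.21 at E15.5 and 41.1% ± 6.73 at E18.5. By mean share it was thus the largest alpha chain of NSC at E15.5 and, close to Lama2, at E18.5. Lama5 made up 7.24% ± 2.28 in NBN at E18.5 against 38.6% ± 5.41 in BP. Lama3 was not tested.

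The beta chains exchanged places in the NSC libraries and, except in replicate 1, went back on the last day. Lamb2 (chr9:108479736-108490530, plus strand), the beta chain of synaptic and kidney basement membranes, read 30.0, 29.5 and 27.0 TPM in NSC at E11.5, 17.49, 11.8, 10.1 and 13.9 TPM at E14.5, 6.67, 8.49 and 5.88 TPM at E17.5 and 18.1, 22.8 and 24.4 TPM at E18.5. Lamb1 (chr12:31265234-31329644, plus strand), the beta chain of early development, read 3.04, 6.77 and 7.64 TPM, 14.4, 20.7, 22.0 and 27.9 TPM, 27.7, 23.3 and 22.5 TPM and 19.98, 9.72 and 7.87 TPM on the same days. At E17.5 every NSC library was above every E18.5 library for Lamb1 and below every one for Lamb2. The median ratio of Lamb1 to Lamb2 in NSC was 0.230 at E11.5, 1.88 at E14.5, 3.83 at E17.5 and 0.427 (range 0.323 to 1.10) at E18.5. Replicate 1 of E18.5 still had more Lamb1 than Lamb2. BP and NBN kept Lamb1 on all days, at 19.96 to 35.4 TPM and 16.6 to 31.7 TPM, with Lamb2 at 1.63 to 7.75 TPM and 0.739 to 3.24 TPM. The ratio had a median of 8.82 (range 3.59 to 19.9) in BP and 16.1 (range 7.89 to 26.6) in the 12 NBN libraries with at least 1 TPM of both. Markers of the sorted cell types moved on the same days in NSC: 6 newborn neuron markers summed to 653 to 2023 TPM at E11.5, 1983 to 4170.0 TPM at E14.5, 5007 to 5835 TPM at E17.5 and 1940.0 to 4148 TPM at E18.5. The 7 stem cell markers summed to 2329 to 2812 TPM, 1637 to 2592 TPM, 1123 to 1688 TPM and 3188 to 6633 TPM. Their part in the exchange was not tested. Lamb3 was not tested.

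Lamc1 (chr1:153218922-153332786, minus strand), the gamma chain of most laminins, made up at least 91% of the summed gamma TPM in every group. It read 24.2, 24.3 and 20.6 TPM in NSC at E11.5, 17.0, 20.2 and 16.8 TPM at E17.5 and 29.6, 39.8 and 46.0 TPM at E18.5, so the last day stood above all earlier NSC libraries. NBN libraries were within 6.48 to 11.6 TPM and below every BP and NSC library of their day. Lamc3 had its highest group mean in NSC at E16.5, 1.30 TPM.

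Stem cells against basal progenitors, averaged over E12.5 to E18.5, asked which matrix genes part the 2 sorted populations. They came from different reporter lines, Hes5::GFP and Tbr2::GFP, so cell type and line cannot be told apart. The NSC libraries also held genes of other cells, as given above for Eomes and Dlx2. The neuron gene Tubb3 had a median of 1973 TPM in NSC and 2231 TPM in BP. A gene was called where limma on log2(TPM + 1) gave a Benjamini-Hochberg adjusted p under 0.05 over all 15231 tested genes and a log2 difference of at least 1 in size. NSC were higher in 5 members, Col2a1, Lamb2, Col4a5, Col18a1 and Lama1, and lower in none of the 38 tested. Over all genes 2.56% were called higher in NSC and 0.466% lower (3.03% either way). The differences were 2.71 ± 0.13 (SE) for Col2a1, 1.81 ± 0.10 for Lamb2, 1.37 ± 0.10 for Col4a5, 1.33 ± 0.10 for Col18a1 and 1.28 ± 0.07 for Lama1 on the log2(TPM + 1) scale. Each had the same direction on 7 of 7 days, and the largest of the 5 adjusted p-values from limma was 4.14e-15. Lamb1 differed by -0.63 ± 0.11 (limma adjusted p 8.79e-06), under the size asked for. At an unadjusted p under 0.05 from limma, the only tool run, 17 members were higher and 5 lower. The members' median difference was 0.19 and that of all genes 0.0019. With the libraries over 80 TPM of vessel and meninges markers left out, the count was again 5.

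**Figure D3:**
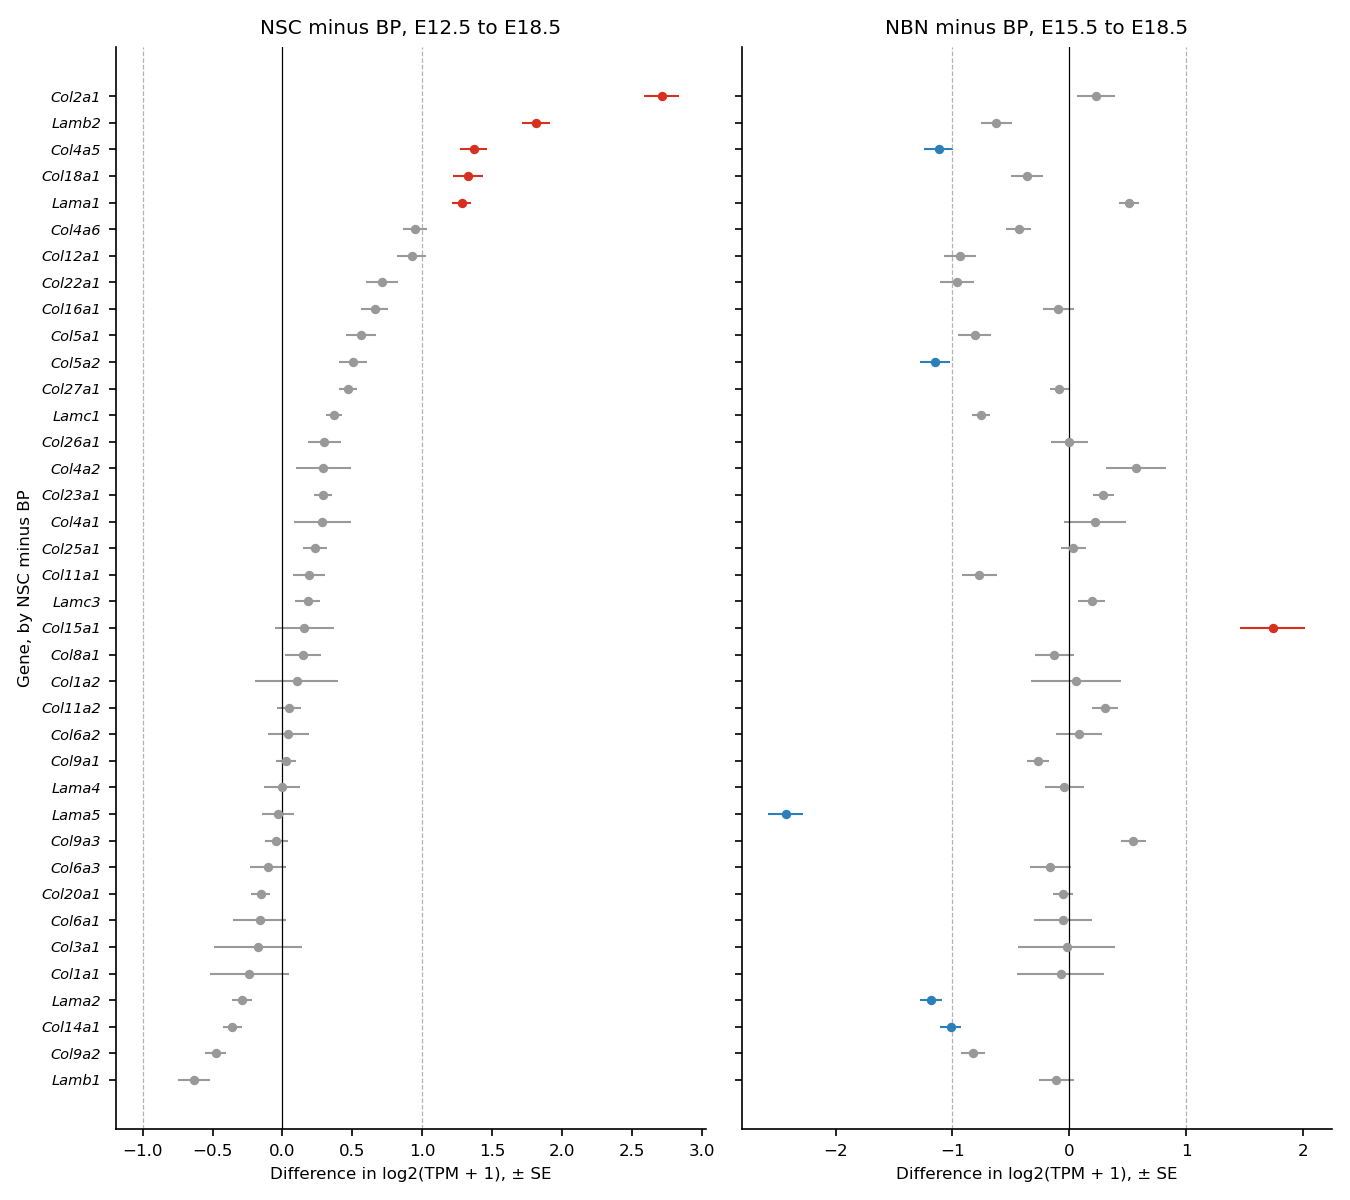
Difference in log2(TPM + 1) with its SE (bars) for the 38 tested members, NSC minus BP over 7 days (left) and NBN minus BP over 4 days (right), in the order of the left panel; red points were called higher, blue lower and grey neither, and dashed lines mark a difference of 1. Col2a1 and Lamb2 lie farthest right in the left panel, Lama5 farthest left and Col15a1 farthest right in the right panel.

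Newborn neurons against basal progenitors, averaged over E15.5 to E18.5, compared cells of the same reporter line. Of the members, 5 were lower in NBN and 1 was higher. Over all genes 5.09% were called lower and 5.75% higher (10.8% either way). The comparison shares its BP libraries with the one before. Lama5 differed by -2.43 ± 0.15 (SE; limma adjusted p 2.91e-19), the largest difference of the members, and Lama2 by -1.18 ± 0.09. Col5a2, Col4a5 and Col14a1 differed by -1.15 ± 0.13, -1.12 ± 0.13 and -1.02 ± 0.09. All 5 were lower on 4 of 4 days. Col15a1 was higher by 1.74 ± 0.28 (limma adjusted p 4.01e-07) in the means of log2(TPM + 1) on 4 of 4 days, and the libraries did not overlap on 2 of the 4. On the other 2 the BP library rich in Cdh5 read above the neurons, and at E16.5 the mean TPM was 8.09 in BP and 7.84 in NBN. The members' median was -0.09 and that of all genes -0.06. The call that ended on leaving out 1 library was Col14a1 without BP E15.5 replicate 1, BP E16.5 replicate 2, BP E17.5 replicate 3, BP E18.5 replicate 1, NBN E15.5 replicate 2 or NBN E16.5 replicate 1 or 2 (-0.999 to -0.95).

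Against stem cells on the same 4 days, NBN were lower in 10 members and higher in 1. The comparison shares its NBN libraries with the one before, and here too cell type and reporter line cannot be told apart. Over all genes 6.11% were called lower and 2.55% higher (8.65% either way). The 10 were 7 collagens and 3 laminins: Col2a1 (-2.35), Lamb2 (-2.08), Col4a5 (-2.03), Col12a1 (-1.90), Lama5 (-1.89), Col22a1 (-1.72), Col5a2 (-1.29), Col16a1 (-1.19), Col4a6 (-1.19) and Lamc1 (-1.01). SEs ran from 0.08 to 0.17, and the largest adjusted p from limma among the 10 was 1.01e-10. Col15a1 was higher by 1.41 ± 0.28 (limma adjusted p 3.15e-05). With endothelium, pericyte and meninges marker means as covariates, without 4 genes, it was 0.63 and not called. Without E18.5, Lamc1 (-0.77) and Col16a1 (-0.87) were not called, nor was Col4a6. The members' median was -0.41 and that of all genes -0.06. Over the 4 days, 9 of 38 members had every NBN library under every NSC library of its day, against 8.71% of all tested genes. The calls that ended when 1 library was left out were Lamc1 without NSC E15.5 replicate 1, NSC E16.5 replicate 3, NSC E17.5 replicate 2, NSC E18.5 replicate 2 or 3, NBN E15.5 replicate 2 or 3, NBN E16.5 replicate 1 or 2 or NBN E17.5 replicate 3 (-0.997 to -0.97).

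Along the days, the fitted change from E11.5 to E18.5 in NSC was called higher in 15 and lower in 6 of 38 members, where 14.8% and 8.17% of all genes were called. The 6 that fell were Col18a1 (-2.96 ± 0.21, SE), Col2a1 (-2.54 ± 0.26), Lama1 (-1.83 ± 0.13), Col5a1 (-1.31 ± 0.22), Col25a1 (-1.15 ± 0.17) and Lamb2 (-1.10 ± 0.21). The 10 with the largest rise were Lama2 (3.15 ± 0.15), Col12a1 (2.96 ± 0.21), Col9a3 (2.79 ± 0.17), Col1a2 (2.29 ± 0.60), Col16a1 (2.15 ± 0.20), Col15a1 (1.89 ± 0.43), Col1a1 (1.67 ± 0.58), Lamb1 (1.57 ± 0.23), Col3a1 (1.48 ± 0.64) and Col22a1 (1.34 ± 0.23). The other 5, Col8a1, Col9a1, Col26a1, Lama4 and Col23a1, rose by 1.04 to 1.28. The adjusted p from limma was 1.31e-23 for Lama2, 9.76e-17 for Col18a1 and 0.0406 for Col3a1. By class, 5 of 8 tested fibril-associated collagens rose and none fell, 3 of 9 fibrillar collagens rose and 2 fell, and 2 of 4 laminin alpha chains rose and 1 fell. The members' median was 0.60 and that of all genes 0.09. Under quantile scaling 9 members rose and 7 fell. Without the libraries over 80 TPM of vessel and meninges markers 19 were called, and Col3a1 (0.75), Lama4 (0.90) and Col23a1 (0.93) were not among them. With endothelium and pericyte marker means as covariates, 10 members rose and 9 fell. The slopes of Col1a1, Col1a2 and Col3a1 were then -0.69, -0.61 and -1.30, and Lama4 (0.28), Col26a1 (0.71) and Col23a1 (0.61) lost their calls. With the meninges mean added and 4 genes dropped from the lists, 8 members rose and 8 fell. Without E18.5 the rises of Col22a1 (0.14), Col8a1 (0.35), Col9a1 (0.64), Lama4 (0.85) and Col23a1 (0.87) were not called. Lamb2 changed by -0.40 as the last day minus the first and by -0.42 without E16.5 and E17.5, and was called in neither. As the last day minus the first, Lamb1 (0.96), Col1a1 (0.51), Col3a1 (0.24), Col1a2 (1.19), Col26a1 (0.86) and Col25a1 (-0.78) were not called either. Without E16.5 and E17.5, Col1a1 (0.56), Col3a1 (0.12), Col26a1 (0.87) and Col23a1 (0.90) were not called. Without 1 library these calls ended: Col3a1 without NSC E11.5 replicate 1 or 3, NSC E12.5 replicate 2 or 3, NSC E16.5 replicate 2 or 3, NSC E17.5 replicate 1 or NSC E18.5 replicate 1 or 3 (0.95 to 1.503), Lamb2 without NSC E16.5 replicate 1 (-0.99), Lama4 without NSC E17.5 replicate 1 (0.96), and Col23a1 without NSC E17.5 replicate 1 or NSC E18.5 replicate 1 (0.92 to 0.95).

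In BP the change from E12.5 to E18.5 was called higher in 15 members and lower in 1, against 6.9% and 4.39% of all genes. Lama2 (4.04 ± 0.16, SE; limma adjusted p 6.39e-25) and Col12a1 (3.11 ± 0.24) rose most. Col4a1 (2.31 ± 0.46), Col1a2 (2.06 ± 0.67), Col4a2 (1.92 ± 0.45), Lama5 (1.86 ± 0.26), Col1a1 (1.79 ± 0.65), Col5a2 (1.57 ± 0.23), Col4a5 (1.45 ± 0.22) and Col5a1 (1.37 ± 0.24) followed, and the other 5 (Col22a1, Col11a1, Lamc1, Col9a3 and Lama4) rose by 1.08 to 1.26. Col2a1 fell by 1.75 on the log2(TPM + 1) scale. By class, 5 of 9 fibrillar collagens rose, 3 of 5 network collagens, 3 of 8 fibril-associated collagens and 3 of 4 laminin alpha chains. The members' median was 0.84 and that of all genes 0.09. The summed endothelium markers (14 genes) went from 2.81 to 3.15 TPM in BP at E12.5 to 17.9 to 176 TPM at E16.5 and 7.91 to 24.0 TPM at E18.5. With endothelium and pericyte marker means as covariates 10 members were called in place of 16: the values were 0.67 for Col4a1, 0.47 for Col4a2, -0.65 for Col1a1, -0.43 for Col1a2 and -0.11 for Lama4. Col5a1 (0.59) and Lamc1 (0.97) lost their calls as well, and Lama2, Col12a1, Lama5, Col5a2 and Col4a5 were among the 10. With the meninges mean added and 4 genes dropped, Col5a2 (0.96) and Col4a5 (0.96) lost their calls too. As the last day minus the first, Lama4 (0.53), Col1a1 (1.07), Col1a2 (1.44), Col4a2 (1.23), Col22a1 (0.79), Lamc1 (0.88) and Col9a3 (0.86) were not called. Without E16.5 and E17.5, Lama4 (0.50), Col1a1 (0.95), Col22a1 (0.92), Lamc1 (0.92) and Col9a3 (0.98) were not called. Without E18.5, Col9a3 (0.86) and Col11a1 (0.86) were not called. Under quantile scaling Lama4 (0.96), Lamc1 (0.96) and Col9a3 (0.94) lost their calls, and under median-of-ratios scaling Lamc1 (0.99) and Col9a3 (0.97) did. Calls lost on leaving out 1 library were Col1a1 without BP E12.5 replicate 1 or BP E18.5 replicate 3 (1.61), Col9a3 without BP E12.5 replicate 1 (0.92), Col1a2 without BP E12.5 replicate 1 (1.62), and Lama4 without BP E16.5 replicate 2 or BP E17.5 replicate 3 (0.87 to 0.97).

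In NBN from E15.5 to E18.5, 2 of 38 members rose, Lama2 (1.59 ± 0.18, SE; limma adjusted p 5.81e-09) and Col9a3 (1.11 ± 0.21; 0.000116), and none fell, where 3.3% of all genes were called higher and 1.44% lower (4.74% either way). At an unadjusted p under 0.05 from limma 8 were higher and 2 lower. The members' median was 0.29 and that of all genes 0.04. With 1 library fewer the call was lost for Col9a3 without NBN E15.5 replicate 2 (0.95). With the libraries over 80 TPM of markers left out 5 members were called, and without E16.5 and E17.5 8 were. Without E18.5 Col9a3 (0.97) was not called. Over the same days 11 microglia and macrophage markers summed to 4.53 to 7.42 TPM at E15.5 and 117 to 160.3 TPM at E18.5, beside the vessel markers given with Col4a1, and their part was not tested.

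**Figure D4:**
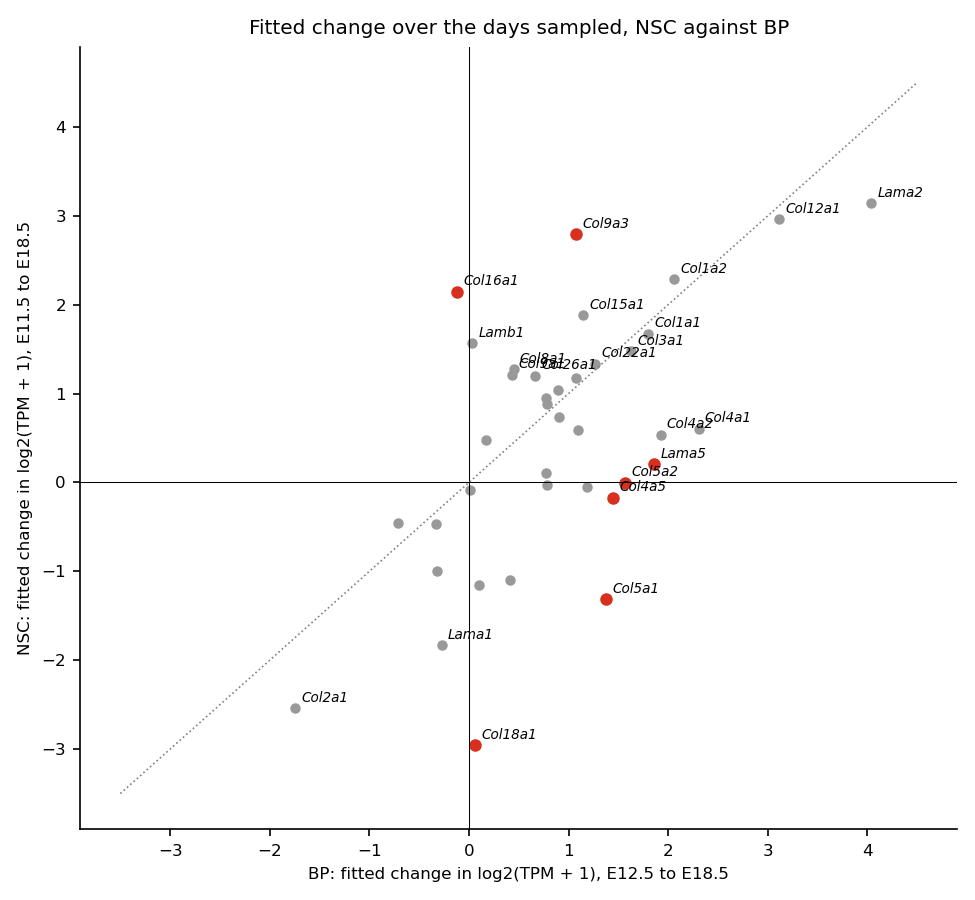
Fitted change in log2(TPM + 1) over the days sampled, in NSC (E11.5 to E18.5, vertical axis) against BP (E12.5 to E18.5, horizontal axis), 1 point for each of the 38 tested members; red points are the 7 whose slope over E12.5 to E18.5 differed between the cell types, and the dotted line marks equal change. Lama2 and Col12a1 lie at the upper right, Col18a1 and Col5a1 lie below the line and Col16a1 and Col9a3 above it.

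The 2 courses were compared directly over E12.5 to E18.5. These slopes rest on the same libraries as those above, and the 2 cell types differ in reporter line. The slope was lower in NSC than in BP for 5 members, Col18a1 (-2.38 ± 0.32, SE), Col5a1 (-2.24 ± 0.33), Lama5 (-1.40 ± 0.35), Col5a2 (-1.20 ± 0.31) and Col4a5 (-1.17 ± 0.30), and higher for 2, Col16a1 (2.15 ± 0.31) and Col9a3 (1.28 ± 0.26). The adjusted p from limma ran from 2.62e-07 for Col18a1 to 0.00238 for Col4a5. Over all genes 3.66% were called lower and 6.86% higher. The members' median was -0.17 and that of all genes 0.0029. Without E16.5 and E17.5, Lama5 (-0.47), Col5a2 (-1.01) and Col4a5 (-0.41) were not called, and the balance turned to 6 members higher and 2 lower. As the last day minus the first, Lama5 (-0.16) and Col4a5 (-0.18) were not called, and without E18.5 the count was 14. None of these 7 calls ended when any 1 library was left out. Under quantile scaling 2 members were higher and 9 lower.

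The step from E17.5 to E18.5 in NSC was compared after the group means had been seen, because several members turned there. Of the members, 9 rose: Col12a1 (1.63 ± 0.28, SE), Lamb2 (1.51 ± 0.28), Col22a1 (1.48 ± 0.30), Col4a5 (1.46 ± 0.26), Lama5 (1.17 ± 0.31), Col16a1 (1.17 ± 0.27), Col11a1 (1.12 ± 0.32), Col8a1 (1.07 ± 0.35) and Lamc1 (1.04 ± 0.16). Lamb1 fell by 1.01. Over all genes 7.54% were called higher and 1.86% lower (9.41% either way). Under quantile scaling 4 members were higher and 1 lower. The adjusted p from limma was 3.54e-06 for Lamc1, 2.16e-05 for Col12a1 and 0.0111 for Lamb1. Markers of the sorted cell types moved at this step too. Over the libraries, the sum of 7 stem cell markers ran from 1123 to 1688 TPM at E17.5 and from 3188 to 6633 TPM at E18.5. The sum of 6 newborn neuron markers ran from 5007 to 5835 TPM and from 1940.0 to 4148 TPM, and that of 6 basal progenitor markers from 294 to 504 TPM and from 491 to 994 TPM. Replicate 1 of E18.5 stood apart in each sum: 3188 against 6633 and 6613 TPM, 4148 against 2141 and 1940.0 TPM, and 491 against 994 and 957 TPM. This library was also the lowest of E18.5 for Col12a1, Col22a1, Col4a5, Lama5, Lamb2 and Lamc1, but not for Col11a1 or Col8a1. Genes of the oligodendrocyte lineage, looked at after the values were seen, moved with this step: Pdgfra read 12.6, 5.16 and 3.85 TPM at E17.5 and 38.2, 52.5 and 73.5 TPM at E18.5, and Sox10 3.89, 2.03 and 0.708 TPM and 11.3, 13.8 and 21.6 TPM. The part of any of these cells in the collagen and laminin values was not tested. Without NSC E17.5 replicate 1, the marker-rich library of that day, 6 members were called. Without 1 library these calls ended: Lamb1 without NSC E17.5 replicate 1 or NSC E18.5 replicate 2 or 3 (-0.92 to -0.76), Lama5 without NSC E17.5 replicate 1 or NSC E18.5 replicate 3 (0.91 to 0.98), Col11a1 without NSC E17.5 replicate 1 (0.99), Col8a1 without NSC E17.5 replicate 1 or 2 or NSC E18.5 replicate 1 or 2 (0.61 to 0.86), Lamc1 without NSC E17.5 replicate 3 or NSC E18.5 replicate 3 (0.90 to 0.99), and Col16a1 without NSC E17.5 replicate 3 (0.95).

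**Figure D5:**
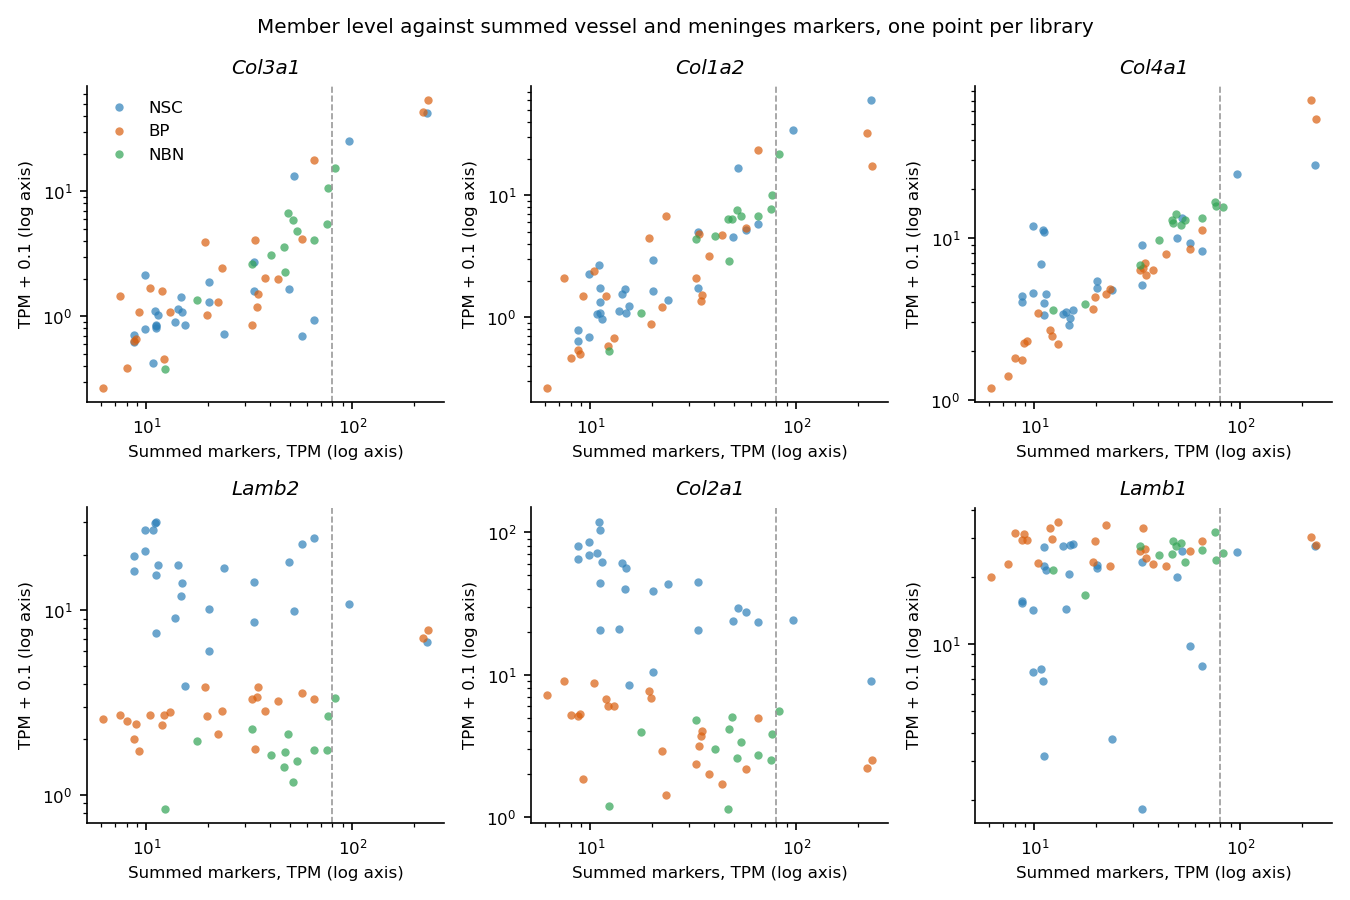
Level of 6 members (TPM + 0.1, log axis) against the summed TPM of 38 vessel and meninges marker genes (log axis), 1 point for each of the 63 libraries, colored by cell type; the dashed line marks 80 TPM. Col3a1, Col1a2 and Col4a1 climb with the markers in all 3 cell types. Col2a1 and Lamb2 run higher in NSC (8.32 to 118 and 3.80 to 30.0 TPM) than in BP (1.32 to 8.94 and 1.63 to 7.75 TPM), with some overlap. Lamb1 overlaps between the cell types, at 1.72 to 28.1 TPM in NSC, 19.96 to 35.4 TPM in BP and 16.6 to 31.7 TPM in NBN.

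How far each member moved with markers of other cells was described over the 63 libraries on log2(TPM + 1), with group means removed. These correlations are descriptions over libraries that share composition and depth, and carry no p. Of the 19 members with a group mean of at least 10 TPM, 6 had r over 0.5 with the mean of the 16 endothelium markers, 4 with that of the 10 pericyte markers and 6 with that of the 16 meninges and fibroblast markers. Among the 19, Col1a1, Col1a2 and Col3a1 reached 10 TPM only in groups that held a marker-rich library. The share of all genes with such r was not computed, so the counts show nothing particular to the members. These lists include the 4 genes left out of the marker sums. Col4a1 followed the endothelium (Pearson r 0.87, Spearman rho 0.80 and 0.78 for r without the 2 libraries farthest from the median of the markers). Col1a2 followed the meninges and fibroblast list (Pearson r 0.82, Spearman rho 0.85 and 0.82 for r without the 2 libraries farthest from the median of the markers). Col3a1 gave r 0.75 with the endothelium and 0.77 with the meninges and fibroblast list. For the members called between NSC and BP, or named for their laminin shares, r with the endothelium was -0.08 for Col2a1, 0.48 for Col18a1, 0.08 for Col4a5, 0.02 for Lama1, 0.17 for Lama2, 0.08 for Lama5 and for Lamb1, and 0.54 for Lamb2, of which 0.36 was left without the 2 farthest libraries. Col18a1 gave 0.51 with the meninges and fibroblast list. In NSC at E18.5 the pericyte list (9 genes) summed to 26.0 to 37.0 TPM with the endothelium list (14 genes) at 4.37 to 7.90 TPM. In replicates 1 to 3 of that group Pdgfrb read 11.54, 14.0 and 17.06 TPM and Cspg4 7.495, 8.706 and 13.05 TPM. The pericyte gene Vtn read only 1.613, 2.032 and 1.202 TPM there. Pdgfra, named above for the oligodendrocyte lineage, read 38.25, 52.46 and 73.5 TPM in the same libraries. Which cells carried the pericyte sum was not tested. None of the 42 vessel and meninges markers was at 0 in every library of a cell type, and 13 of the 16 endothelium markers had a mean under 1 TPM in NSC, 4 in BP and 6 in NBN.

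The genes that modify, receive and surround these chains gave the context of 66 genes in 4 lists, of which 62 were tested. In NSC against BP, 9 of the 62 were higher and none lower, beside 3.03% of all genes called either way. Of these, 4 of 13 tested basement membrane partners were higher and none lower: Tnc (2.60), a glial matrix glycoprotein, Sparc (2.43), which binds collagen, Fn1 (1.22), fibronectin, and Nid2 (1.16), which links laminin to type IV collagen. Of 22 collagen modifying and folding enzymes 4 were higher and none lower, with Crtap (1.503) and P4ha3 (1.41), both of prolyl hydroxylation, at the top. Of 14 matrix receptors, the integrin chain Itgb8 (1.61) was higher and none lower. None of 13 matrix proteases and inhibitors was called by limma, with 5 higher and 3 lower at an unadjusted p under 0.05. For the lists where no gene was called lower, 2 partners, 1 enzyme and 5 receptors were lower at that unadjusted p.

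In NBN against BP, 5 of the 62 were higher and 8 lower, beside 10.8% of all genes called either way. Receptors were lower in 3 of 14: Gpr56 (-2.22), which binds collagen III, the collagen kinase Ddr1 (-1.80) and the integrin chain Itgb1 (-1.26). Of the enzymes 3 of 22 were lower, the crosslinker Loxl1 (-2.96), the collagen chaperone Serpinh1 (-1.57) and Plod1 (-1.21), and Adamts3 (2.15), which trims procollagen, was higher. Of the partners Hspg2 (-1.63), the perlecan core protein, was lower, and Fn1 (1.97) and Frem2 (1.43) higher. Of 13 proteases and inhibitors, the membrane-bound collagenase Mmp14 (-1.78) was lower, and Timp2 (1.199), which inhibits and activates such enzymes, and Mmp17 (1.01) were higher.

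Over the days in NSC, 14 of the 62 rose and 7 fell. The genes with the smallest p in their lists were Tnc (8.26), Frem2 (1.61) and Fn1 (-2.08) of the partners, the procollagen protease Adamts2 (2.35), Loxl1 (4.11) and P4ha3 (2.20) of the enzymes, Mmp17 (2.10) and Timp2 (1.28) of the proteases and inhibitors, and the collagen receptor Ddr2 (1.97). In BP 17 rose and 1 fell, with Adamts2 (2.42), Loxl1 (4.35), Mmp17 (2.72), Tnc (3.06) and the laminin receptor chain Itga7 (1.94) among those of smallest p. In NBN 8 rose and 2 fell over the days (4.74% of all genes either way). NBN were higher than NSC in 1 and lower in 14 of the 62 (8.65% of all genes), and from E17.5 to E18.5 in NSC 13 rose and 1 fell (9.41% of all genes). The share called either way was 33.9% of the 62 in NSC over the days and 29% in BP, beside 23% and 11.3% of all genes.

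On the chromosomes, 17 of the 55 members lie within 200000 bases of another, in 9 neighbouring pairs of which 3 are head to head, 4 on the same strand and 2 tail to tail. Neighbours outside the type IV pairs differed in how far they moved together. Col6a1 and Col6a2, on the same strand, gave r 0.96, rho 0.83, and r 0.94 without the 2 libraries farthest from the median of the first gene, whereas Col3a1 and Col5a2, tail to tail, gave r 0.44, rho 0.46, and r 0.37 without the 2 libraries farthest from the median of the first gene. Among the members not tested were Col5a3, Col24a1, Col4a3, Col4a4, Col8a2, Col10a1, Col6a4, Col6a5, Col6a6, Col7a1, Col28a1, Col19a1, Col13a1, Col17a1, Lama3 and Lamb3.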

How the data were processed

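RNA was measured by sequencing of GFP-sorted cells in 63 libraries of 19 groups. The authors deposited 1 table of TPM per gene. The submitters' processing notes name kallisto 0.43.0 and the builds GRCm38.p2 and mm10, and per the labels' protocols libraries were single-read TruSeq RNA v2. TPM keeps no read depth, so no counting error is given, and the sources used here do not say whether strand was used. Groups follow the labels. Values were transformed to log2(TPM + 1), and the 15231 of 23078 genes that reached 1 TPM in 3 or more libraries were fitted with limma 3.58.1 in R 4.3.3: 1 mean per group, all libraries in 1 fit, moderated variances with a mean trend. A fold change on this scale understates the change of low genes. A slope is the change over all days of a cell type. Calls needed both a log2 change of 1 or more in size and an adjusted p (Benjamini-Hochberg, over all genes) under 0.05. The script was tested on simulated data. Members, lists and tests were chosen with earlier results of these data known. Named were, in each comparison, all called members up to 10 in each direction, with values by library for members of at least 10 TPM in a group, and in the lists up to 3 genes of smallest adjusted p, with an additional gene in 2 lists of 4 calls. The comparison of NSC at E18.5 with E17.5 and 3 alternatives (leaving out E16.5 and E17.5, leaving out libraries over 80 TPM of vessel and meninges markers, and 3 marker means without 4 genes as covariates) were added after seeing the data. The other 15 kinds of alternative covered pseudocount, filter, scaling, libraries in the fit, covariates, replicate block and days, besides leaving out each library in turn. Gene positions are from GENCODE vM21 (GRCm38), promoter windows from RefSeq (GRCm38.p6). A single item is not reported here.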

Additional observations from a re-analysis of the deposited data

Results flagged for a closer look

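In groups of 4 or more libraries, the highest or lowest library of a member with at least 10 TPM in some group was set against the spread of the others with Dixon's gap ratio. Of 95 such sets (19 members in 5 groups) 9 held a library beyond the 95% critical value, where chance gives about 1 in 20 for a single set. The sets share libraries and some members move together, so the count cannot be read as an excess over that rate. In BP at E17.5, replicate 3 stood high in 4 members: Col1a1 at 34.74 TPM, Col3a1 at 53.41 TPM, Col4a1 at 54.02 TPM and Col4a2 at 37.24 TPM. The same library had 33.5 TPM of Cdh5 and summed to 232 TPM over the vessel and meninges markers, and their part in its collagen values was not tested. In NSC at E12.5, replicate 4 stood high in Col4a1 (11.64 TPM) and Col4a2 (10.25 TPM). That library also summed to 4505 TPM over the erythroid markers, against 12.05 to 250.1 TPM in the others of its group. Their part was not tested. In NBN at E17.5, replicate 4 stood high in Col4a5 (1.789 TPM), and replicate 3 stood low in Col18a1 (3.128 TPM) and Lamc1 (9.297 TPM).

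The course over E12.5 to E18.5 differed between NSC and BP in 7 members by the limma test of the difference itself. The slope in NSC minus that in BP was -2.3776 for Col18a1, -2.2352 for Col5a1, -1.3975 for Lama5, -1.2013 for Col5a2, -1.1684 for Col4a5, 1.2759 for Col9a3 and 2.1547 for Col16a1, on the log2(TPM + 1) scale.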

How the results depend on the processing

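With a pseudocount of 5 the members called numbered 2 for NSC against BP, 1 for NBN against BP, 4 for NBN against NSC, 9 for the NSC slope, 5 for the BP slope, 0 for the NBN slope, 3 for the slope difference and 4 for NSC at E18.5 against E17.5. With a mean of at least 5 TPM as the filter, which leaves fewer genes, they numbered 3, 1, 4, 7, 8, 1, 3 and 4 in the same order. A pseudocount of 0.1 gave 11 for NBN against BP, 4 for the NBN slope and 13 for the slope difference. The BP slope gave 10 with endothelium and pericyte covariates, 10 as the last day minus the first and 7 with 3 marker lists. The NBN slope gave 4 with its own libraries only, 1 without E18.5, 8 without E16.5 and E17.5 and 5 without libraries over 80 TPM of markers. The slope difference gave 11 under quantile scaling, 11 with endothelium and pericyte covariates, 14 without E18.5 and 12 with 3 marker lists. NSC at E18.5 against E17.5 gave 5 under quantile scaling, 6 with its own libraries only and 6 without libraries over 80 TPM. Apart from the filter, the cause was not tested. Direction reversed with endothelium and pericyte covariates for Col1a1 (-0.69), Col3a1 (-1.30) and Col1a2 (-0.61) over NSC days and for Col1a1 (-0.65), Lama4 (-0.11) and Col1a2 (-0.43) over BP days. With 3 marker lists those values were -0.45, -1.20, -0.14, -0.50, -0.15 and -0.099. Only Col3a1 over NSC days with endothelium and pericyte covariates had an adjusted p from limma under 0.05 there, 0.0459. Quantile scaling moved the median of all genes from 0.09 to -0.07 for the NSC slope and from 0.08 to -0.05 for E18.5 against E17.5.

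Leaving out 1 library gave 5 to 5 calls for NSC against BP, 5 to 7 for NBN against BP, 10 to 12 for NBN against NSC, 19 to 23 for the NSC slope, 13 to 19 for the BP slope, 1 to 3 for the NBN slope (1 without NBN E15.5 replicate 2), 7 to 10 for the slope difference and 6 to 15 for E18.5 against E17.5 (6 without NSC E17.5 replicate 1). With the replicate number as a block the counts were 5, 6, 12, 21, 16, 2, 7 and 10, and no call was lost. Blocking day and replicate number together gave 6 for NBN against BP. Same-numbered BP and NBN libraries of a day deviated together (r over 0.1) in 12 of 13 pairs, from -0.149 to 0.825, and 11 of 13 correlated best with their own number, which the labels do not explain. Depth is unknown and levels near 1 TPM are uncertain.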
